A study of Mus musculus with 3 samples.

Results

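Some annotated features of the mouse genome lie almost wholly inside the exons of a gene on the opposite strand. Of the 50600 features in the gene tables, 331 lay with at least 90% of their merged exons within those of 1 gene on the opposite strand, and had a length of at least 200 bases and a position off chromosomes X, Y and M. The gene around such a nested feature is called its host. The 331 features lay in 319 hosts, 2 of them in 2 hosts each, and 229 were covered in full. The rule reads positions and lengths and no count.

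The counts came from total RNA of T-helper 1 (Th1) cells, which are CD4+ T cells differentiated in culture. The material was primary cells of C57BL/6NJ mice, and there was 1 group of 3 libraries, with no second cell type, genotype or treatment. Sex was not collected and age is unknown in the labels. The 3 libraries carry separate biosample names but share 1 donor identifier, so the spread between them may be technical. Replicates 1, 2 and 3 held 3647366, 4305077 and 2510319 counts. All 11 T cell marker genes had at least 30 counts in every library, with sums of 13707, 22535 and 5059. Of the 6 Th1 markers, Tbx21 and Ifng had at most 3 counts in a library and Cxcr3 had 0, while Stat4, Il12rb2 and Il18r1 had at least 30 in each. Il12rb2, like the T cell marker Cd3e and the myeloid marker Csf1r, overlaps an exon of the other strand, and the counts of these markers are uncertain. All marker counts, low or high, also rest on the strand setting described below, whose match to the kit was not tested. The summed B cell markers reached 1439 counts at most, mostly Ighm, the summed myeloid markers 747, nearly all Csf1r, and the erythroid markers Hba-a1 and Hbb-bs stood at 0.

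Both strands of a chromosome can be transcribed, and RNA copied from the strand opposite a gene is called antisense RNA. Such transcripts can pair with the host's RNA, interfere with its transcription or carry a coding sequence of their own, and many are annotated from single cDNA clones. Only a library that keeps track of the strand, counted in the matching orientation, can tell the 2 genes of such a pair apart. These tables were counted with strand setting 1, in which the first read must lie on the strand of the gene for the fragment to count, per the file headers. The orientation that the kit gives is not given in the sources used here. If the kit gives the opposite orientation, fragments of a host's RNA count for the feature nested in it, and the reverse. A count below is therefore a count on the strand of the named gene as deposited, and which of the 2 RNAs it came from was not tested.

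The same bases carry both names, and a short stretch shows how little separates them. The first 60 bases of Gm37376, a feature of the provisional class TEC within the nuclear long noncoding RNA gene Malat1 (GRCm38, chr19:5801941-5802000), read as follows on the feature's plus strand and on the host's minus strand, from GENCODE transcripts.
Gm37376: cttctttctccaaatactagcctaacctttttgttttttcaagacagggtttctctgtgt
Malat1: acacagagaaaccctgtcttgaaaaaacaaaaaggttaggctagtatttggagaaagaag

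Introns give a second sign of strand in the sequence, since most introns begin with GT and end with AG on the strand that is transcribed. Every gap between the exons of an annotated transcript was counted as an intron, whatever its length. Of the 331 features, 324 were found in GENCODE M21 and 177 of these had an intron, with 259 introns in all. The bases at both ends could be read from the host's transcripts for 180 introns of 140 features. On the feature's strand 129 of them were GT-AG, 16 were GC-AG, 1 was CT-AC and 34 had other pairs. Among the 34 are gaps of 1 to 4 bases, such as those in Gm17711 (1 base) and Gm9823 (4 bases). The totals are therefore of annotated gaps, not all of which are splice sites. The windows below hold 10 exonic and 10 intronic bases at the start of an intron, then 15 intronic and 5 exonic bases at its end. The capitals mark the 2 intronic bases at each end. They are shown for the feature with the CT-AC intron, for 3 nested features with more counts per base than their hosts and for 2 coding genes with fewer.
Gm20721 start (chr2:174341800-174341819, minus strand): ccacaatggtCTgaaaacag
Gm20721 end (chr2:174341703-174341722, minus strand): gagctagacacatACttcaa
Gm11175 start (chr8:70699606-70699625, minus strand): aactgctcagGTtggcgtag
Gm11175 end (chr8:70699491-70699510, minus strand): gctttgcttgtgcAGgtcct
Gm17134 start (chr10:79864092-79864111, minus strand): taggatagagGTggctgtgc
Gm17134 end (chr10:79864036-79864055, minus strand): tgggcacagtcagAGgcggg
Gm20402 start (chr3:52269328-52269347, minus strand): ctgcgacaggGTgagcctct
Gm20402 end (chr3:52269019-52269038, minus strand): ctcactctcctccAGcaggc
Pdcd2 start (chr17:15521906-15521925, minus strand): tgaattccagGTatggcctt
Pdcd2 end (chr17:15521789-15521808, minus strand): ttgtcctcttcccAGgtcat
Med10 start (chr13:69810043-69810062, plus strand): gccagaagctGTgagtgacg
Med10 end (chr13:69811592-69811611, plus strand): ctgcctttttcccAGaaact

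The CT-AC intron belongs to Gm20721, a protein-coding annotation of 13 exons inside Gnas, the gene of the stimulatory G protein alpha subunit. Gm20721 shared 7 introns base for base with Gnas. Read on the strand of Gnas, the intron above has GT at its start and AG at its end.
Gnas start (chr2:174341703-174341722, plus strand): ttgaaGTatgtgtctagctc
Gnas end (chr2:174341800-174341819, plus strand): ctgttttcAGaccattgtgg
Only 2 other nested features shared an intron with their host, Gm21958 in Supt20 and Gm26718 in Pgam5, with 1 intron each.

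By annotation, 92 nested features were antisense transcripts, 73 processed pseudogenes, 51 long intergenic noncoding RNAs (lincRNAs), 41 protein-coding genes and 24 of the provisional class TEC. The remainder was spread over smaller classes, and 7 identifiers had no name in the reference. Most were short and simple, with 149 of a single exon, 156 of 2 exons and 26 of more. Their merged exons ran from 201 to 6243 bases with a median of 576, against a median of 5020 for the hosts, of which 232 pairs had a protein-coding one. Processed pseudogenes share sequence with their parent genes, and their counts are uncertain for that reason.

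Most nested features with measurable counts exceeded their hosts in counts per base. A minimum of 60 counts over both genes and the 3 libraries left 201 of the 331 pairs, with 193 hosts. The other 130 pairs were not tested, and 101 nested features had no count in any library. The counts of feature and host were compared in each library by an exact two-sided binomial test against their shares of the summed exonic length, with Benjamini-Hochberg adjustment over all 2796 opposite-strand pairs with overlapping exons. A gene was called higher when adjusted p was under 0.05 in its direction in all 3 libraries. The nested feature was higher in 150 pairs (74.6%) and the host in 29 (14.4%), and 22 met neither call. Pairs in which each gene is nested in the other are in these counts from both sides. With such pairs counted once, the feature was higher in 147 and the host in 28 of 197. With protein-coding hosts only, the host was higher in 13 of 168. The 2796 pairs also take in pairs with little overlap, where neither gene lies inside the other. Among all of them the gene taken as the feature was called higher in 50.1% and its partner in 27.8%. In 1503 pairs with 10 to under 90% of the shorter gene covered, the shorter was called higher in 58.5% and the longer in 25.2%. The test covers counting error alone, and a sign-flip test over 3 libraries could not go below a two-sided p of 0.25.

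The size of the difference was large beside its spread over the libraries. The median log2 ratio of counts per base, feature to host with 0.5 counts added to each, was 4.54, 4.01 and 5.48 in replicates 1, 2 and 3 (mean 4.67 ± 0.74 SD, n = 3). Where both genes had counts, the median feature held 25.5, 18.4 and 56.7 times the counts per base of its host, over 191, 190 and 179 pairs. Replicate 3 was the highest and replicate 2 the lowest. The nested features took 4.49%, 3.06% and 5.44% of each library's counts. Merged length takes in each annotated exon of a gene, used or not in these cells. Exons not in use would lower the counts per base of a host, and likewise of a feature. Exon use was not tested.

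The nested features with the most counts per base included those in Malat1, Gnas and Rhoa, genes known for abundant RNA in many tissues. Gm37376 had 17899, 6253 and 7303 counts over 453 bases, and Malat1 around it 6946, 4490 and 954 over 6983. The unnamed feature in Malat1 had 18171, 5800 and 6283 counts over 425 bases. Both were highest in replicate 1, and these 2 features share their host, so they are not independent of each other.

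Gm20721 had 14041, 14085 and 16043 counts over 1484 bases. Gnas had 515, 806 and 234 over 11186 bases, and the mean log2 ratio was 7.91 ± 1.00 (SD, n = 3). The ranges over the libraries did not overlap, and the feature was highest in replicate 3, where the host was lowest. Over the 3 libraries together its counts per base were 214 times those of Gnas (95% Clopper-Pearson interval 204 to 225, counting error only). Of its bases inside Gnas, 77.7% lay in the coding sequence of the host.

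Gm37401, an antisense transcript of 2 exons, had 2960, 2418 and 3064 counts over 347 bases in Rhoa, a small GTPase of the actin cytoskeleton. Rhoa itself had 467, 774 and 177 counts over 7494 bases. Gm17134 had 2962, 2310 and 2821 counts over 437 bases in Ptbp1, a repressor of splicing with 560, 868 and 231 counts over 4740 bases. In both pairs the feature was lowest in replicate 2, the library in which the host was highest.

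Gm44709 in Supt5, a transcription elongation factor, had 2870, 2470 and 2801 counts against 854, 1181 and 366. Gm28364 in Aamp, which codes for a WD repeat protein, had 1814, 1579 and 1763 against 217, 342 and 78. Gm26602, a single-exon gene of 285 bases in R3hdm4, had 1249, 1284 and 1376 against 84, 180 and 25, the largest mean log2 ratio among the 10 features with the most counts per base, at 8.45 ± 1.48 (SD, n = 3). In these 3 pairs the host was lowest in replicate 3, and the feature had between 1249 and 2870 counts in each.

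**Figure D1:**
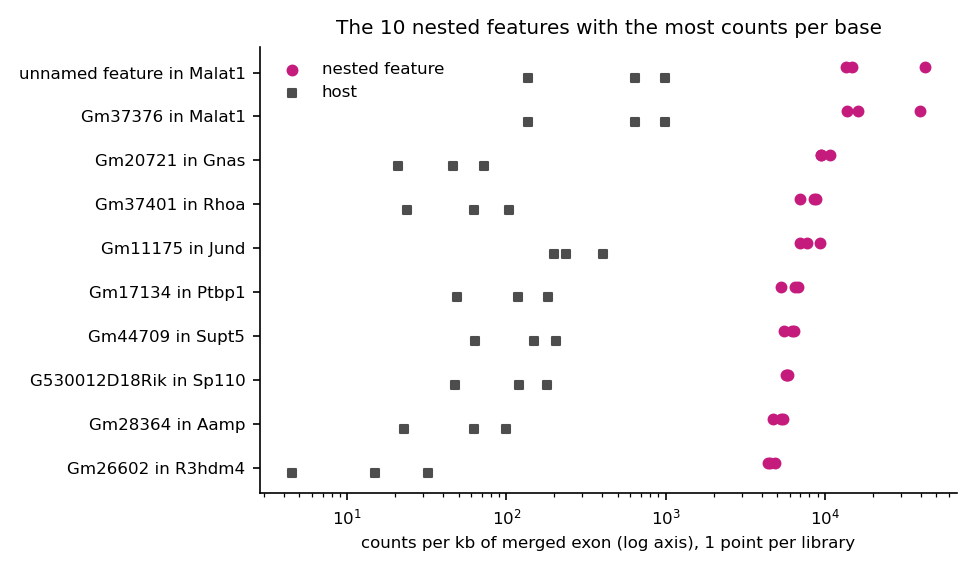
Counts per kb of merged exon, on a log axis, for the 10 nested features with the most counts per base (circles) and their hosts (squares), 1 point per library. Features sit at 4382 counts per kb or more and hosts at 995 or less. The features were chosen by these same values. Over all 201 tested pairs the feature was higher per base in all 3 libraries in 153.

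The hosts with known roles in T cells and leukocytes were few, and a textbook list of such genes held 4 of them. Their 4 features were all called higher, as were 74.6% of features over all 201 tested pairs. The list, drawn up with earlier results of these data known, left out other leukocyte genes among the hosts. Of these, 6 are given after it, a choice that is not complete. Gm11175 is an antisense transcript of 877 bases, wholly inside the coding sequence of Jund, a subunit of the AP-1 transcription factor. It had 6741 counts in replicate 1, 8129 in replicate 2 and 6126 in replicate 3, while Jund, over 1668 bases, had 396 in the first, 671 in the second and 332 in the third. The mean log2 ratio was 4.89 ± 0.32 (SD, n = 3), and both genes were highest in replicate 2. Gm26669, a lincRNA mostly beyond the coding end of Zfp36l1, an RNA-binding protein that promotes mRNA decay, had 6752, 7516 and 7263 counts over 1808 bases. Zfp36l1 had 266, 539 and 67 over 2990 bases, so the ratio varied more, at 5.80 ± 1.52 (SD, n = 3).

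G530012D18Rik, an annotated coding gene of 420 bases in Sp110, a nuclear body protein of leukocytes, was nearly level at 2418, 2456 and 2397 counts. Sp110 had 815, 1221 and 323 over 6781 bases. Gm20402, antisense to the first part of Foxo1, a transcription factor that keeps T cells quiescent, had 1732, 2296 and 1459 counts over 687 bases. Foxo1 had 561, 1097 and 195 over 8665 bases. In all 4 pairs the feature was higher per base in each of the 3 libraries, which held for 153 of all 201 tested pairs.

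A further 6 hosts with known roles in leukocytes were not in that list and were added after their values were seen. Gm13568 in Notch1, a receptor that drives T cell development, had 463, 372 and 484 counts over 446 bases, and Notch1 439, 609 and 169 over 14232. Gm17041 in Cish, an inhibitor of cytokine signalling, had 556, 370 and 526 counts, and Cish 54, 51 and 8. Gm15655 in Maf, a transcription factor of several T helper types, had 58, 23 and 48, and Maf 18, 11 and 1. These 3 features were called higher. The other 3 pairs were under the minimum of 60 counts. Gm12534 in the cytokine gene Il21 had 0 counts in each library, Gm12214 in the cytokine gene Il5 had 3, 0 and 0, and Gm29439 in Cd22, a B cell receptor of sialic acids, had 3, 0 and 3. Their hosts had at most 7 counts in a library.

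The next comparison asks whether nested features rank as their hosts are known to be expressed in T cells. The answer depended on which T cell and leukocyte hosts were counted, while 0 of 19 features in hosts of other tissues stood in the top 82 of the 331. The hosts were sorted into 3 textbook lists, of T cell and leukocyte genes, ubiquitous genes and genes of other tissues, which were drawn up with earlier results of these data known. By counts per base relative to library totals, the features in the 4 T cell and leukocyte hosts stood at ranks 5 to 26 of the 331, all within the top 82, with a median of 10.5. With the 6 hosts added, 6 of 10 features were in the top 82, the median rank was 47.5 and the lowest was 231. The added hosts are not all the leukocyte genes left out, so these values depend on that choice. The features in ubiquitous hosts were in the top 82 in 8 of 14 cases, with a median rank of 51. Of the 19 features in hosts of other tissues 0 were in the top 82, and the highest of them was Gm12660 in Grm6. Of the 294 features in unlisted hosts, 70 were. No test was made of these lists, and the median rank over all 331 was 166.

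The levels behind these ranks overlapped between the lists. The median feature in T cell and leukocyte hosts had 4746, 5002 and 4862 counts per kb, and with the 6 hosts added 1099, 803 and 1092. In ubiquitous hosts it had 1157, 976 and 1192. Single features in ubiquitous hosts ran from 2.28 to 9491 counts per kb in replicate 2, which takes in the 3342 to 9269 of the 4 listed T cell and leukocyte hosts. Over all 201 tested pairs the median was 250.5, 239.6 and 228.9. In hosts of other tissues the median over all 19 features was 0 in each library. The hosts' own counts per base followed a like order, with medians of 105, 180 and 35.1 counts per kb for the T cell and leukocyte list, 54.6, 91.8 and 22.8 for the ubiquitous list, and 0 in each library for the other tissues.

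Ubiquitous hosts gave 10 pairs with the feature called higher, 2 with the host higher and 2 with neither. Cox20, an assembly factor of cytochrome c oxidase, overlaps the long exons of Hnrnpu, an RNA-binding protein of the nucleus. Cox20 had 1465, 1242 and 1649 counts over 883 bases, and Hnrnpu 3681, 4980 and 2857 over 11599. The feature was higher per base at a mean log2 ratio of 2.34 ± 0.61 (SD, n = 3). Pdcd2, whose product takes part in ribosome assembly, lies beyond the coding end of Tbp, the TATA-binding protein, and had 202, 192 and 144 counts over 2582 bases. Tbp had 2377, 2205 and 2767 over 13399 bases and was called higher, at a mean log2 ratio of -1.40 ± 0.42 (SD, n = 3).

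Of the 19 features in hosts of other tissues, 2 reached 60 counts with their host. Gm12660 in Grm6, a glutamate receptor of retinal bipolar cells, had 56, 74 and 59 counts over 664 bases, and Grm6 had 21, 22 and 13 over 5421. Its feature was called higher. Gm13938 in Ttn, the giant muscle protein titin, had 0 counts in each library, which allows up to 3 counts in a library. Ttn had 73, 65 and 81 over 116825 bases, and the pair met neither call. Of 5 olfactory receptor hosts, Olfr714, Olfr290, Olfr1270 and Olfr539 had 0 counts in all libraries, as did the features in them. Olfr77 had 19, 24 and 7 counts, and Gm7808 in it 0, 2 and 0.

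**Figure D2:**
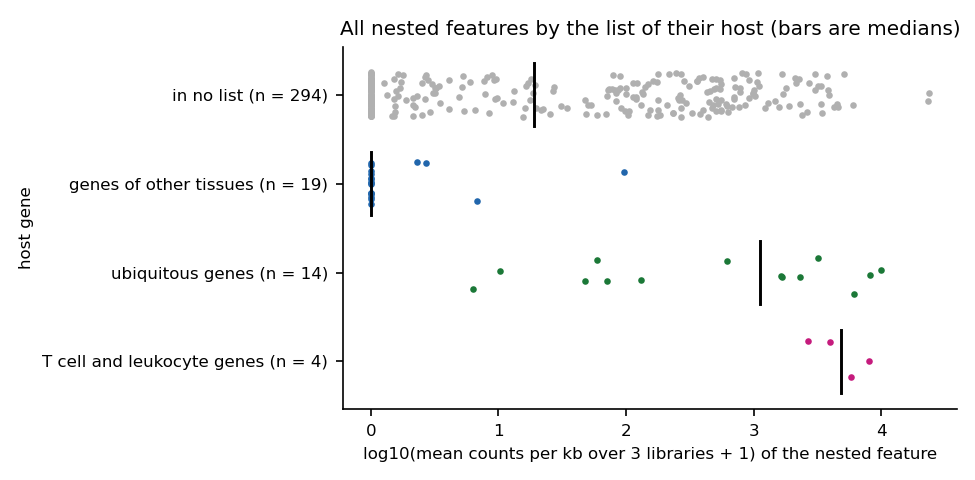
Each point is 1 of the 331 nested features, at log10 of its mean counts per kb over the 3 libraries plus 1, grouped by the textbook list of its host, with a bar at the median. The 4 features in the listed T cell and leukocyte hosts lie toward the right, and the median for hosts of other tissues is 0.

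Across all pairs, feature and host were only loosely ranked alike. Spearman's rho between the counts per base of feature and host was 0.34, 0.43 and 0.18 in replicates 1, 2 and 3, over the 201 tested pairs. It is given as a description, since pairs of 1 library share its depth and 8 of the 201 are pairs in which each gene is nested in the other. It was lowest in replicate 3. Between libraries the features kept their ranks closely, at 0.984 for replicates 1 and 2, 0.983 for 1 and 3 and 0.977 for 2 and 3, against 0.972, 0.933 and 0.895 for the hosts.

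**Figure D3:**
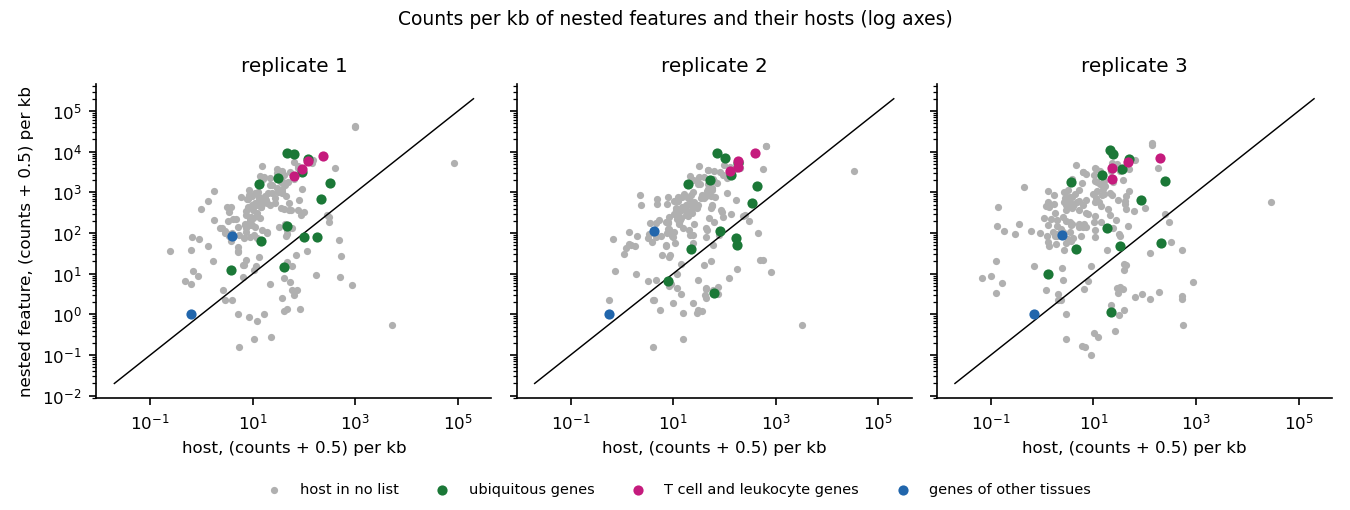
Counts per kb of the 201 tested nested features against those of their hosts in each library, on log axes with 0.5 counts added, colored by the list of the host. Points above the diagonal have more counts per base in the feature, which held for 163, 158 and 163 pairs in replicates 1, 2 and 3.

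The calls were also counted by whether feature and host were coding, with no test between the classes and 74.6% of features called higher over all 201 pairs. Of 145 tested noncoding features in coding hosts, 118 were called higher and 11 had a higher host. Of the 63 tested features in the antisense class, 60 were called higher and 1 had a higher host. Of 23 coding features in coding hosts, 20 were called higher and 2 had a higher host. Among the 7 tested coding features in noncoding hosts the calls went the other way, with 0 features and 7 hosts called higher. Ajm1 in Gm26702 is 1 of these 7, and the same pair reversed, Gm26702 in Ajm1, is among the 118. The remaining 26 pairs, with neither gene coding, gave 12 and 9. Over all classes, 8 of the 201 entries come from genes nested in each other, where each such pair is entered from both sides. They gave 4 features and 4 hosts called higher by construction.

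Med10, a subunit of the Mediator complex that links transcription factors to RNA polymerase II, is such a coding gene in a noncoding host. It had 57, 87 and 33 counts over 862 bases, and the lincRNA Gm26819 around it 2448, 2269 and 2730 over 5128. The mean log2 ratio was -2.91 ± 0.83 (SD, n = 3). Icam4, a red cell adhesion molecule, had 1, 3 and 3 counts in Gm47079, which had 284, 262 and 303. The histone genes Hist2h3b and Hist2h2bb, both in Gm20628 and so not independent, had at most 8 counts in a library against 186, 98 and 125 for Gm20628. Histone genes are near-identical copies, and their counts are uncertain.

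Among the 29 pairs with a higher host, the mean log2 ratio ran from -11.95 to -1.24 with a median of -4.32. The 150 pairs with a higher feature ran from 1.06 to 9.80 with a median of 5.41. The first group was led by the ribosomal RNA locus on chromosome 17, where CT010467.1 had 202900 counts in replicate 1, 82019 in replicate 2 and 70696 in replicate 3. Gm42418 lies in CT010467.1 and had 9519 counts in the first library, 6053 in the second and 1041 in the third. AY036118 lies in Gm42418 in turn and had 0. Ribosomal RNA genes are repeated in many copies, and these 3 counts are uncertain.

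Mfsd4a, a membrane transporter gene, had 6229, 5807 and 6256 counts over 7187 bases, and the lincRNA Gm26892 in it 8, 17 and 10 over 1636. Tctn1, a protein of the ciliary base, had 4194, 4678 and 4335, and the processed pseudogene Gm15481 in it 4, 11 and 1. The raw counts of both hosts were nearly level over libraries of unequal depth. Relative to the normalized library size both were called as varying by the chi-square test described below, with log2 ratios of replicate 3 to 2 of 1.65 for Mfsd4a and 1.44 for Tctn1. Each also shares exonic bases with another gene on the strand of the nested feature. Mfsd4a shares 84 bases with Elk4, a transcription factor of 336, 588 and 142 counts, and Tctn1 shares 1574 bases with Hvcn1, a proton channel of leukocytes with 259, 485 and 216. Such a further opposite-strand gene was found for 13 of the 29 pairs with a higher host. It was looked for in these 29 only, so no share over the other pairs can be set beside it. The 13 include genes of the same locus, CT010467.1 for Gm42418 and Hist2h3b and Hist2h2bb for each other. The part of such genes in these counts was not tested.

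The calls by position inside the host are likewise given with no test between the classes, beside 74.6% of features called higher over all pairs. In 77 tested pairs most of the feature lay beyond the host's coding end, and 73 of these features were called higher and 2 of the hosts. For features mostly within coding sequence the counts were 29 and 2 of 32. They were 29 and 6 of 44 for features mostly outside the coding sequence but between its first and last base. Features ahead of the coding start were called higher in 8 of 16 pairs, with 3 hosts higher. In hosts without coding sequence the features were higher in 11 of 32 pairs and the hosts in 16.

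The excess of the shorter gene of a pair was larger where the longer gene's exons cover a larger share of it. They are called inner and outer gene here, although below 90% the shorter gene lies only partly inside. Pairs with a coverage of 10 to 30% had median log2 ratios of 1.54, 1.06 and 2.13, and the inner gene was called higher in 53.8% of 878. The share called higher was 63.8% of 365 at 30 to 50%, 66.5% of 161 at 50 to 70%, 68.7% of 99 at 70 to 90% and 74.6% of 197 at 90% or more, each pair taken once. Features inside the introns of an opposite-strand gene were another matter. Of 1191 such pairs with 60 counts, the inner gene was called higher in 12.4% and the outer in 30.1%, with median log2 ratios of -0.94, -2.44 and -0.92. No test was made of the difference between these classes, and an intronic feature's comparison is with a gene whose exons lie elsewhere.

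**Figure D4:**
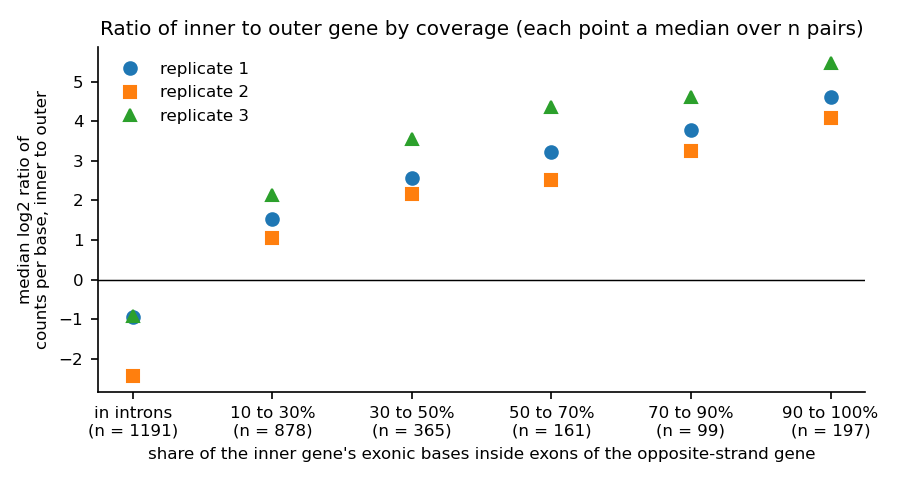
Median log2 ratio of counts per base, inner to outer gene, by how much of the inner gene lies in exons of the outer, with 1 point per library and the number of pairs below. Where exons overlap, the inner gene is the shorter of the pair and may lie only partly inside the outer. The medians are below 0 for genes inside introns and reach 4.07 to 5.48 at a coverage of 90% or more.

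The pairs next to the 90% limit are given as values only. Just inside, at 90.2% to 90.3%, lay Gm12660 in Grm6, Gm26964 in A530017D24Rik and A930015D03Rik in the class Ib histocompatibility gene H2-T22, with mean log2 ratios of 4.78, 5.89 and 3.05. Just outside lay Gm13625 in Ssb at 89.8%, Abhd1 in Preb at 89.6% and Pus3 in Hyls1 at 88.1%, with 0.96, 1.56 and -2.03. These 3 lie below the medians of the 99 pairs at a coverage of 70 to 90%, which were 3.77, 3.24 and 4.62 in the 3 libraries.

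Where the feature was the higher gene, it had nearly the same raw counts in replicates 2 and 3, while its host lost counts much as the median gene did. Pairs were sorted by which gene was higher in replicate 1, mutual pairs were left out, and replicates 2 and 3, which the sorting did not use, were compared over genes with at least 30 counts in replicate 1. Where the feature was higher, the median log2 ratio of raw counts, replicate 3 to 2, was 0.13 for 143 features, and 95 of them had more counts in replicate 3. It was -1.92 for 131 hosts, of which 6 had more. Over 9640 genes of the tables it was -1.72, and the library totals differed by -0.78. Where the host was higher, the median was -0.16 for 32 hosts and -0.43 for 9 features.

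**Figure D5:**
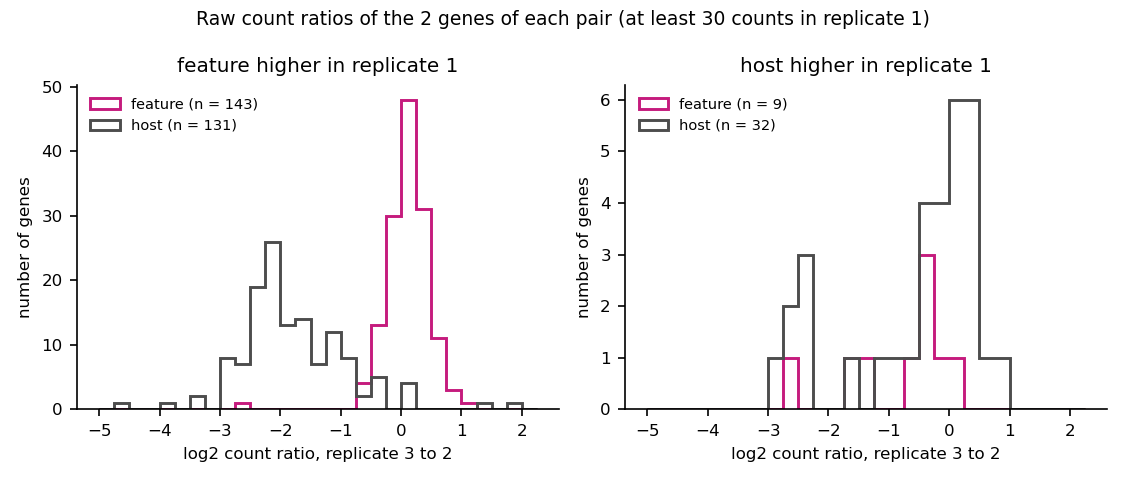
Number of genes by log2 ratio of raw counts, replicate 3 to replicate 2, for pairs in which the feature (left) or the host (right) had more counts per base in replicate 1. On the left the features gather around their median of 0.13 and the hosts around -1.92.

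Relative to the normalized library size, this made the nested features higher in replicate 3 than in replicate 2. With effective sizes by edgeR's TMM, a Poisson chi-square test with Benjamini-Hochberg adjustment over 10662 genes called 159 of 165 nested features (96.4%) as varying between libraries, against 62.4% of all genes. Of the 159, 156 were higher in replicate 3 than in replicate 2, a direction that 33.2% of all genes had together with a call. The median log2 ratio was 1.65 for nested features and -0.11 for all genes. Scaling by total counts moved the median of all genes to -0.86 and that of nested features to 0.88, and left 147 calls, of which 143 were higher in replicate 3. Of 169 hosts tested, 113 (66.9%) were called, with 51 higher and 62 lower in replicate 3. Their direction depended on the scaling, with 57 higher and 51 lower by DESeq2's size factors and 31 and 107 by total counts. Without replicate 3, the calls were 45 of 177 hosts (25.4%), 129 of 166 nested features (77.7%) and 28.1% of all genes.

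The nested features lower in replicate 3 were Gm26527, Gm26702 and Gm42418. They were chosen here from their values, as was Gm20481, a feature with 557, 28 and 351 counts inside the heat shock gene Hspa1a, which had 58, 4 and 15. Feature and host were both lowest in replicate 2 there, so the pair moved together. Hspa1a has a near-identical neighbour, Hspa1b, and its counts are uncertain.

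The annotated ends of nested features seldom carried a polyadenylation hexamer. The hexamers AATAAA and ATTAAA, searched on the feature's strand in the last 40 bases of its longest GENCODE M21 transcript, were found in 37 of 324 features (11.4%). They were in 20 of the 146 with a transcript among the 150 called higher (13.7%), and in 37.0% of 55450 genes of the annotation, which are unlike the nested features in length and class. The labels name both a total RNA assay and a library protocol for polyadenylated RNA. A missing hexamer says only that these letters are not in the window.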

How the data were processed

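The deposited tables hold raw counts per gene, with exon positions, for 3 total RNA libraries of 1 group. Per the file headers, the authors counted STAR-aligned read pairs with both ends mapped by featureCounts 1.4.6-p4 at strand setting 1 on GENCODE M13 exons, and per the labels the build is mm10. Exons were merged per gene and overlapped with bedtools 2.31.1. Names, coding parts, introns and sequences came from GENCODE M21 (GRCm38), which named 50376 of the 50600 features. The binomial test used scipy 1.17.1, and the variation test effective library sizes from edgeR 4.0.16 or, as an alternative, DESeq2 1.42.0. Both tests were tested on simulated data. Depth ran from 2510319 to 4305077 counts. Intervals cover counting error only.

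The members and lists were chosen with earlier results of these data known. Pairs named are the 10 features with the most counts per base, up to 5 pairs with the most counts per host list, the 6 largest hosts called higher, and 3 pairs on each side of 90%. Coding pairs, 6 further leukocyte hosts, the olfactory receptor hosts, and features lower in replicate 3 were added after values were seen. Alternatives changed the count minimum, coverage, length, host class, added counts, scaling and libraries.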

Additional observations from a re-analysis of the deposited data

How the results depend on the processing

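Limits: 1 group, counting error in the pair test, lists drawn from textbook knowledge, and hosts compared over all their annotated exons. The feature was called higher in 99 of 136 pairs at full coverage and 93 of 122 at a length of at least 500 bases, counts that fall with the number of pairs, and in 130 to 194 pairs under the other settings. The host was called higher in 18 pairs at full coverage, 47 at a coverage of at least 75%, 13 with protein-coding hosts only and 19 without pseudogene, snoRNA, misc_RNA and rRNA-locus pairs, an alternative chosen after seeing the data. Leaving out each library in turn gave 149 to 153 features and 27 to 30 hosts called higher, log2 ratios of 4.34 to 5.13, rank relations of 0.25 to 0.37 and 129 to 157 varying features. The median log2 ratio stayed between 4.27 and 5.18 and the rank relation between 0.23 and 0.41 under all settings run. At full coverage the mean over libraries of the median counts per kb was 7980 in T cell and leukocyte hosts, where 1 pair was left, and 869 in ubiquitous hosts, against 4870 and 1109. With 6 further leukocyte hosts, chosen after seeing the data, it was 2662 over 7 pairs and, with no minimum, 998 over 10. In hosts of other tissues it was 47.4 over 2 pairs, 1.72 over 3 pairs with a minimum of 20 counts and 0 over 19 with no minimum, the last chosen after seeing the data. Leaving out each library gave 4804 to 4932, 1067 to 1175 and 43.3 to 50.1 for these 3 lists. At full coverage no pair in hosts of other tissues had 60 counts, and no value was computed.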
